A study of Homo sapiens with 6 samples.

Results

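A set of 9 genes of leukocyte integrins and their activators was followed in K562 cells that carried wild-type C/EBPα, its p30 isoform or neither: ITGB2, ITGAM, ITGAL, ITGAX, ITGA4, ITGA5, ITGB1, FERMT3 and TLN1. They were chosen by name as 9 of the 17066 gene symbols in the deposited values. The β2 subunit ITGB2 was higher in both isoform lines than in control cells, at 20.3 FPKM in P30 and 39.9 in CEBPA against 1.39 in CTR. The α subunits that pair with it differed by line: ITGAM was high only in P30, whereas ITGAL and ITGAX exceeded 1 FPKM only in CEBPA. The β1 pair ITGB1 and ITGA5 and the activators FERMT3 and TLN1 had their lowest level in CEBPA.

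Integrins are receptors of an α and a β chain that hold cells to matrix or to other cells. Leukocytes are known for the β2 integrins, in which ITGB2 (CD18) pairs with ITGAL (CD11a), ITGAM (CD11b) or ITGAX (CD11c), and an α chain needs its β chain to reach the cell surface. β1 integrins, in which ITGB1 pairs with ITGA4 or ITGA5 among others, bind fibronectin, and ITGA4 with ITGB1 also binds VCAM1. Resting integrins are bent and bind weakly, and talin (TLN1) and kindlin-3 (FERMT3) switch them on by binding the tail of the β chain inside the cell. Loss of ITGB2 or of FERMT3 causes the inherited leukocyte adhesion deficiencies. ITGAM is a classical surface marker of granulocytes and monocytes.

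The K562 line is an established human leukemia line with erythroid features. It was stably transformed by the submitters with a PiggyBac transposon that carried a doxycycline-inducible gene for wild-type C/EBPα (CEBPA), for C/EBPα-p30 (P30) or no insert (CTR), and all 6 samples, 2 per line, received 200 ng/ml doxycycline for 48 h. Each line was made separately, whether a line is 1 clone is not stated in the sources used here, and no sample without doxycycline is among the 6, so a difference between lines and an effect of the isoform cannot be told apart. C/EBPα drives granulocyte development, and p30 lacks its N-terminal activation domain. According to the paper, a western blot showed both the full-length protein and p30 in the CEBPA line. The CEBPA and P30 lines therefore do not hold 1 separate isoform each. The values are FPKM, that is, fragments scaled to transcript length and to the mapped fragments of the library, so that levels of different genes can be set side by side. Each gene has 1 FPKM per line with both replicates pooled, in 3 tables of 1 pair of lines each. No spread between replicates, standard error or p-value can therefore be computed from these values, and all comparisons here are descriptions without a replicate check. The depth is not in these files, so the number of fragments behind a value cannot be read from them.

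A change was computed as the difference of log2(FPKM + 1), a scale that understates changes of low genes, and a gene was counted as higher or lower when it differed at least 2-fold on this scale and exceeded 1 FPKM in at least 1 of the lines compared. In bulk RNA a level per cell and the share of cells that hold the transcript cannot be told apart. The labels give K562, and 11 erythroid markers were read for its erythroid character, of which 6 had values. The lowest of the 6 was at 42.2 FPKM in CTR cells, 20.2 in P30 cells and 12.9 in CEBPA cells. GATA1 was at 185 FPKM in CTR cells, 193 in P30 cells and 53.1 in CEBPA cells. In P30 vs CTR, 3 of the 6 were at least 2-fold lower, against 0.613% of all genes compared. These were HBG1, with 872 FPKM in CTR cells and 410 in P30 cells, ALAS2, with 149 and 44.7, and HEMGN, with 59.0 and 20.2. The other 3, GATA1 among them, differed less than 2-fold. That all 6 were above 0 does not tell cell types apart, since the granulocyte and monocyte markers with values were too. CEBPA itself was not analysed here.

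**Figure D1:**
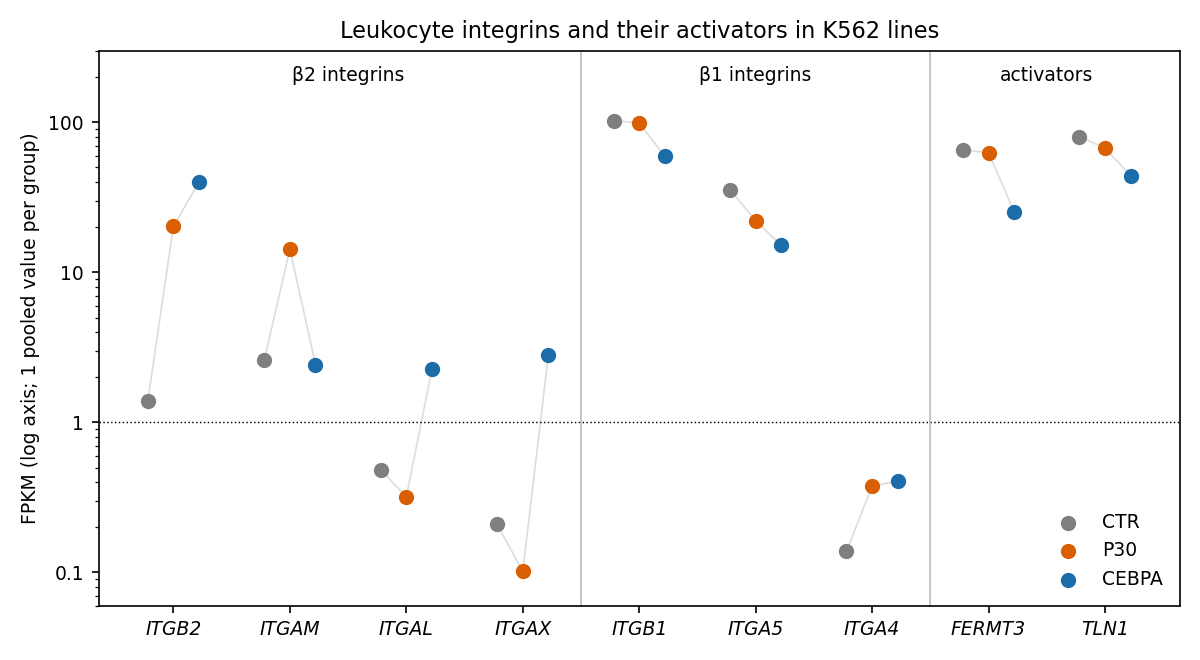
FPKM of the 9 genes on a log axis, with 1 point per line for CTR, P30 and CEBPA, pooled over 2 replicates. Thin lines only join the points of 1 gene, and the dotted line marks 1 FPKM. ITGB2 lies at 1.39, 20.3 and 39.9 FPKM and ITGAM at 2.59, 14.3 and 2.43, while ITGB1, ITGA5, FERMT3 and TLN1 are lowest in CEBPA.

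ITGB2, the common β chain of the leukocyte integrins, had 1.39 FPKM in CTR cells, 20.3 in P30 cells and 39.9 in CEBPA cells. Both isoform lines were thus far above control cells, 14.6-fold in P30 and 28.7-fold in CEBPA. The difference of log2(FPKM + 1) was 3.16 in P30 against CTR and 4.10 in CEBPA against CTR. Placed among all genes compared, the P30 difference was number 5 from the top of 12395 and the CEBPA difference number 112 of 13673. CEBPA had 1.96 times the ITGB2 level of P30, a log2 difference of 0.94 that stayed just short of 2-fold. ITGB2 (ENSG00000160255) spans chromosome 21 from 46305868 to 46351904 on the minus strand. This and all later gene positions are those of GRCh37, which is hg19, in a Gencode version newer than that of the alignment. The antisense lncRNA ITGB2-AS1 lies inside these bounds on the plus strand, from 46340966 to 46349595, and 303 of its 2509 exonic bases overlap exons of ITGB2. Its level was 0.0939 FPKM in CTR cells, 0.190 in P30 cells and 2.63 in CEBPA cells. The library kit kept the strand, but whether strand was used in counting is not given in the sources used here, so the values of this pair are uncertain in the shared bases. The antisense RNA was below 1 FPKM in P30, in which ITGB2 was high.

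ITGAM, the αM chain that forms the complement receptor Mac-1 with ITGB2, had 2.59 FPKM in CTR cells, 14.3 in P30 cells and 2.43 in CEBPA cells. Only P30 was high, and CEBPA was close to CTR. In P30 vs CTR the log2 difference was 2.09, number 21 from the top of 12395 genes. In CEBPA vs P30 it was -2.16, number 37 from the bottom of 13569, and in CEBPA vs CTR it was -0.07. ITGAM was the only member with at least 2-fold differences from P30 to both other lines. On chromosome 16, ITGAM (ENSG00000169896) spans bases 31271288 to 31344213. ITGAX follows at 31366455 to 31394320 and ITGAL lies at 30483979 to 30534888, all on the plus strand.

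ITGAL, the αL chain of the lymphocyte function antigen that binds ICAM proteins, had 0.485 FPKM in CTR cells, 0.318 in P30 cells and 2.26 in CEBPA cells. ITGAX, the αX chain of macrophages and dendritic cells, had 0.209 FPKM in CTR cells, 0.102 in P30 cells and 2.82 in CEBPA cells. Both exceeded 1 FPKM only in CEBPA, so that they could be compared only through the line in which they were high. Their log2 differences in CEBPA vs CTR were 1.13 for ITGAL and 1.66 for ITGAX, and in CEBPA vs P30 they were 1.31 and 1.79. ITGAX has no row in the table of CTR and P30, and its values are from the other tables.

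The β2 chain and its α partners were then set against each other within each line, since FPKM is per length. The summed level of ITGAL, ITGAM and ITGAX was 3.29 FPKM in CTR cells, 14.7 in P30 cells and 7.50 in CEBPA cells. ITGB2 was 0.423 times this sum in CTR, 1.38 times in P30 and 5.32 times in CEBPA. The β chain was therefore the scarcer transcript in control cells and exceeded its measured partners in both isoform lines, by more in CEBPA. ITGAM made up 78.9% of the α sum in CTR, 97.1% in P30 and 32.4% in CEBPA. In CEBPA the rest was 30.1% ITGAL and 37.5% ITGAX. ITGAD, the other α partner of ITGB2, had no value here and is not in the α sum.

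A promoter window of RefSeq was at hand for 6 of the 9 members. The 250 bases upstream of the annotated start of ITGAM are shown because this gene alone was high in P30 only. Capitals mark the letters GAGGAA, the core bound by the myeloid factor PU.1, which begin at position -127 from the start on the plus strand. The window is chr16:31259725-31259974 of GRCh38.p14, plus strand, written 5′ to 3′.
ITGAM: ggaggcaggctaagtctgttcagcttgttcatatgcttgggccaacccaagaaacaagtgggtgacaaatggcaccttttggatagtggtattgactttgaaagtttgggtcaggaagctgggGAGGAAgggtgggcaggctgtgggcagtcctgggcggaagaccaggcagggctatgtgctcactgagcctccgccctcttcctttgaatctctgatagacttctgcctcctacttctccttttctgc
The letters TTNNGNAA, in which N is any base and which stand for a C/EBP consensus, do not occur in this window on either strand. Of 35116 windows of the same length, 23.6% hold GAGGAA and 33.2% hold TTNNGNAA on at least 1 strand. A match is a description of letters and not a bound site, and no window shown here holds both motifs. ITGB2, ITGAL and ITGAX were not matched to a window.

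ITGB1, the β1 chain shared by many cell types, had 103 FPKM in CTR cells, 98.8 in P30 cells and 59.4 in CEBPA cells. It was the highest of the 9 genes in every line. CTR and P30 were close, with a log2 difference of -0.06, and CEBPA was lower by less than 2-fold, with -0.78 against CTR and -0.72 against P30. ITGA5, which forms the main fibronectin receptor with ITGB1, had 35.5 FPKM in CTR cells, 22.1 in P30 cells and 15.1 in CEBPA cells. Here P30 was between the other lines. ITGB1 spans chromosome 10 from 33176201 to 33294720 and ITGA5 chromosome 12 from 54789045 to 54813050, both on the minus strand. The log2 difference of ITGA5 was -0.66 in P30 vs CTR, number 233 from the bottom of 12395 genes, and -1.18 in CEBPA vs CTR, number 605 of 13673. ITGA4, the α chain of the VCAM1 receptor, had 0.138 FPKM in CTR cells, 0.376 in P30 cells and 0.405 in CEBPA cells and never reached 1 FPKM, so that no call was made for it. Its gene spans chromosome 2 from 182321929 to 182403667, plus strand.

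FERMT3, the kindlin of blood cells, had 65.8 FPKM in CTR cells, 62.7 in P30 cells and 25.3 in CEBPA cells. TLN1, which encodes talin, had 80.3 FPKM in CTR cells, 67.3 in P30 cells and 44.1 in CEBPA cells. FERMT3 spans chromosome 11 from 63973398 to 63991368 on the plus strand, and TLN1 chromosome 9 from 35696945 to 35732192 on the minus strand. Both activators were highly expressed in control cells and had their lowest level in CEBPA, where the ITGB2 transcript was highest. The log2 difference of FERMT3 was -1.34 in CEBPA vs CTR, number 394 from the bottom of 13673 genes, and -1.27 in CEBPA vs P30. For TLN1 these were -0.85 and -0.60, short of 2-fold. In P30 vs CTR FERMT3 differed by -0.07 and TLN1 by -0.25.

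The upstream windows of the members that were at least 2-fold lower in CEBPA vs CTR are shown for comparison with that of ITGAM. That of FERMT3 is chr11:64206471-64206720, plus strand, the window listed first where the table holds more than 1, and that of ITGA5 is chr12:54419267-54419516, minus strand, both of GRCh38.p14 and written 5′ to 3′. Capitals mark GAGGAA in FERMT3, which begins at position -201 from the annotated start, and a match to TTNNGNAA in ITGA5, which begins at position -28.
FERMT3: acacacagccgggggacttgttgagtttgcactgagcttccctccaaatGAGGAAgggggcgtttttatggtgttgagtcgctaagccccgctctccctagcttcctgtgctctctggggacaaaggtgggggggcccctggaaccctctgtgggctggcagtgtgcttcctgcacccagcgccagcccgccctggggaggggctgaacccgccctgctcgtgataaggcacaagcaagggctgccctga
ITGA5: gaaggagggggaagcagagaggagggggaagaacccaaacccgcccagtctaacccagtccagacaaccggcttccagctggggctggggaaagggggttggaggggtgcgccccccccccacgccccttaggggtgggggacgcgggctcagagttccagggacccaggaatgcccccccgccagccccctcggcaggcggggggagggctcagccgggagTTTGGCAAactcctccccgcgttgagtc
The first window of FERMT3 holds no match to TTNNGNAA, and its second window, not shown, holds 3 and also 1 GAGGAA. The windows of ITGA4 and TLN1 hold neither motif, and the first window of ITGB1 holds GAGGAA. Of the members at least 2-fold lower in CEBPA vs CTR, FERMT3 thus holds GAGGAA in both windows and ITGA5 does not. TTNNGNAA occurs in ITGA5 and, for FERMT3, in the second window but not in the first.

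In CEBPA vs CTR, 3 of the 9 members were at least 2-fold higher (ITGB2, ITGAX and ITGAL) and 2 were lower (FERMT3 and ITGA5). Of all 13673 genes compared, 14.0% were higher and 6.92% lower. In P30 vs CTR, 2 of 9 were higher (ITGB2 and ITGAM) and 0 lower, where 1.02% of 12395 genes were higher and 0.613% lower. No test underlies the count of 0, since 1 value per line allows none. In CEBPA vs P30, 2 of 9 were higher (ITGAX and ITGAL) and 2 lower (ITGAM and FERMT3), against 13.1% and 5.79% of 13569 genes. Only 8, 6 and 8 members exceeded 1 FPKM in these comparisons. The median log2 difference of all 9 was -0.07, -0.07 and -0.52, and that of all genes listed was 0.05, 0.02 and 0.04. The comparisons share lines, so that they are given side by side and were not related to each other. As a share of the 9, the higher members made up 33.3% in CEBPA vs CTR and 22.2% in each of the other comparisons. Among members just past 2-fold were ITGAL at 1.13 and ITGA5 at -1.18 in CEBPA vs CTR. Just short of it were TLN1 at -0.85 in CEBPA vs CTR and ITGB2 at 0.94 in CEBPA vs P30.

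**Figure D2:**
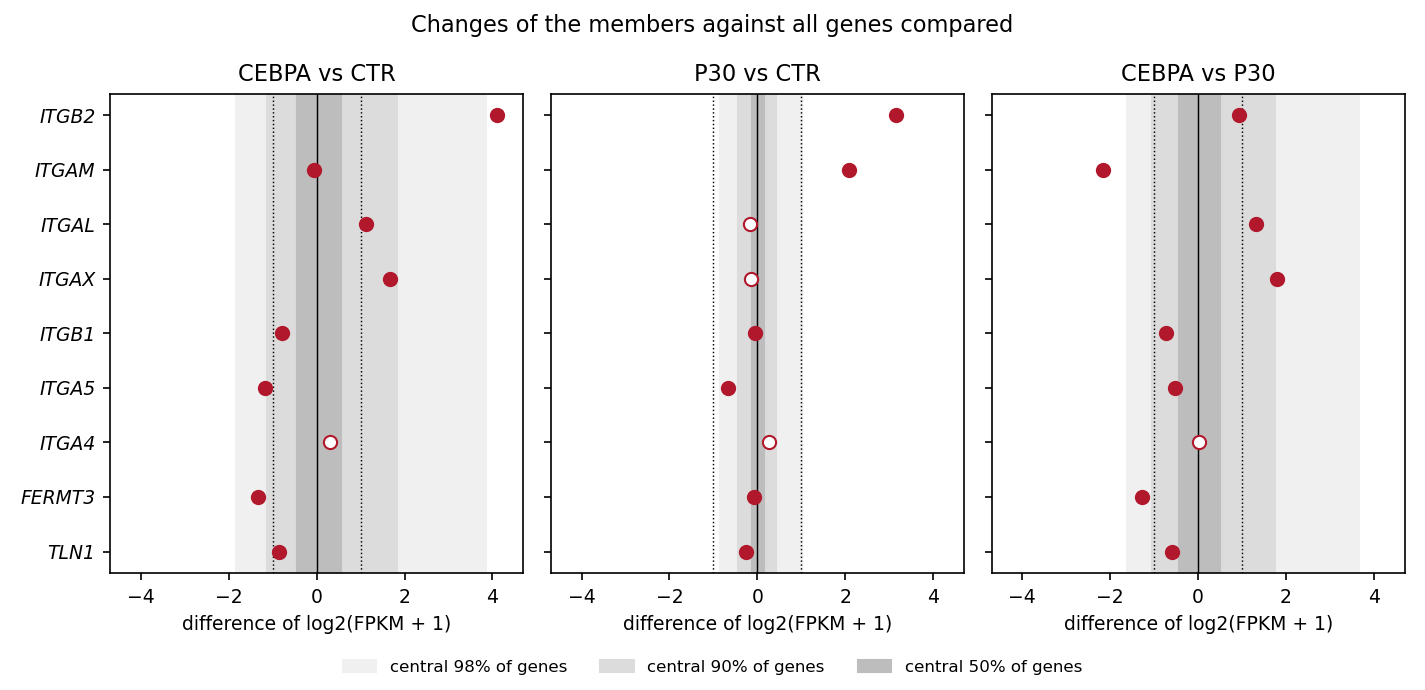
Difference of log2(FPKM + 1) of each member (x axis) in the 3 comparisons. Grey bands hold the central 50%, 90% and 98% of all genes compared, dotted lines mark 2-fold, and open points are members at or below 1 FPKM in both lines. ITGB2 at 3.16 and ITGAM at 2.09 lie outside the central 98% of P30 vs CTR, which ends at 1.02, and ITGB2 at 4.10 lies outside that of CEBPA vs CTR, which ends at 3.85.

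To place the members among all integrin chains, the other subunits were ranked by FPKM in each line. Of the β chains, 6 had values. ITGB1 led in every line, with 87.7% of the summed β FPKM in CTR cells, 75.0% in P30 cells and 52.0% in CEBPA cells. ITGB2 took 1.18% in CTR, as number 5 in rank, and 15.4% in P30 and 34.9% in CEBPA, as number 2. The sum itself was 117 FPKM in CTR cells, 132 in P30 cells and 114 in CEBPA cells. ITGB1 exceeded ITGB2 74.0-fold in CTR, 4.86-fold in P30 and 1.49-fold in CEBPA. Among the other β chains, ITGB7 was number 2 in CTR, with 8.12 FPKM there, 5.88 in P30 cells and 6.32 in CEBPA cells. ITGB5, a partner of ITGAV, had 2.77 FPKM in CTR cells, 4.37 in P30 cells and 7.25 in CEBPA cells. It was the 1 of 4 at least 2-fold higher in CEBPA vs CTR, where 14.0% of all genes compared were higher. Only 3 of the 4 exceeded 1 FPKM there.

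Of the α chains, 14 had values. ITGA5 was number 1 in CTR with 38.0% of the summed α FPKM, number 2 in P30 with 23.3% and number 3 in CEBPA with 11.9%. ITGAE led in P30 with 26.1 FPKM, or 27.4%, and was number 2 in CTR with 25.5 FPKM and in CEBPA with 21.5. ITGAM was number 6 in CTR with 2.77%, number 4 in P30 with 15.0% and number 10 in CEBPA with 1.92%. ITGAV, the αV chain that binds vitronectin, led in CEBPA with 41.4 FPKM against 12.1 in CTR and 14.5 in P30. Of the 9 α chains outside the members, 5 were at least 2-fold higher in CEBPA vs CTR and 0 lower. The median log2 difference over the 9 was 1.50, where all genes listed had 0.05. Of all genes compared, 14.0% were higher and 6.92% lower, and 7 of the 9 chains exceeded 1 FPKM. Besides ITGAV the higher ones were ITGA7, ITGA8, ITGA9 and ITGA10, partners of ITGB1. ITGA8 was the most different, with 0.0343 FPKM in CTR cells, 0.0344 in P30 cells and 10.1 in CEBPA cells. ITGA8, ITGA9 and ITGA10 exceeded 1 FPKM only in CEBPA, like ITGAL and ITGAX. In P30 vs CTR none of these 9 chains differed 2-fold, and their median was 0.01. Only 4 of them exceeded 1 FPKM there, and 1.02% of all genes compared were higher and 0.613% lower. Neighbours in these orders cannot be compared beyond a spread, which is unknown.

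**Figure D3:**
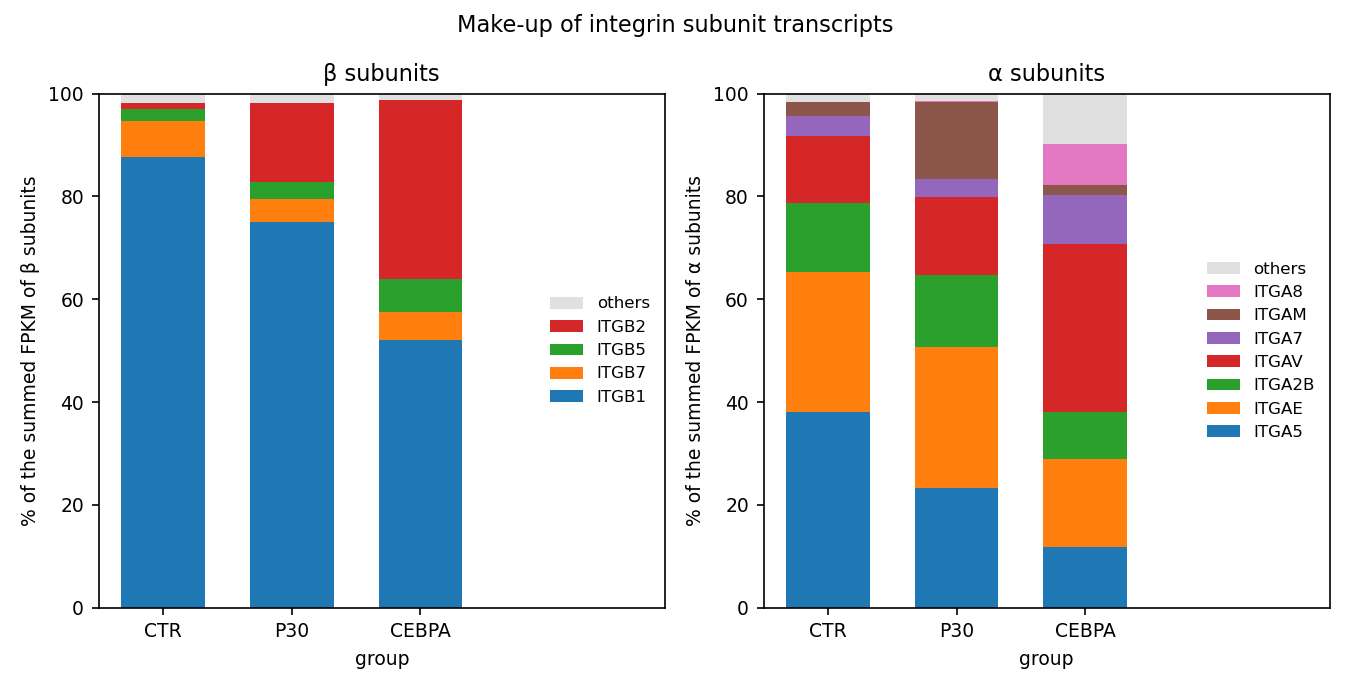
Share of each β chain (left) and α chain (right) in the summed FPKM of its kind (y axis, percent) in CTR, P30 and CEBPA. Chains that never reach 5% are summed as others. ITGB2 takes 1.18%, 15.4% and 34.9% of the β sum, and ITGAM takes 15.0% of the α sum in P30 but 2.77% in CTR and 1.92% in CEBPA.

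Signals inside the cell reach talin and kindlin through the small GTPase Rap1 and a set of adaptors, known as inside-out activation. Of 14 such genes with values, 5 were at least 2-fold higher in CEBPA vs CTR, where 14.0% of all genes compared were. In P30 vs CTR 1 was, where 1.02% were. None was lower in either comparison, and the median log2 differences were 0.45 and 0.19. Only 13 and 9 of the 14 exceeded 1 FPKM in these comparisons. Rap1 itself, encoded by RAP1A and RAP1B, was abundant in all lines, with RAP1B at 105 FPKM in CTR cells, 131 in P30 cells and 152 in CEBPA cells. The gene higher in both isoform lines was FYB, the adaptor ADAP, with 1.08 FPKM in CTR cells, 12.6 in P30 cells and 12.8 in CEBPA cells. SKAP1, the binding partner of this adaptor, had 0.237, 0.330 and 9.29 FPKM in the same order. APBB1IP, the Rap1 effector RIAM that recruits talin, had 0.0212 FPKM in CTR cells, 0.0976 in P30 cells and 5.50 in CEBPA cells. Like ITGAX, both were above 1 FPKM only in CEBPA. The paralogs of the activators, FERMT2 (kindlin-2) and TLN2, were low in CTR at 0.287 and 0.397 FPKM and had 6.36 and 4.38 FPKM in CEBPA, where FERMT3 and TLN1 were at their lowest. FERMT3 and TLN1 were above these paralogs there too. Both paralogs exceeded 1 FPKM only in CEBPA, with 0.668 FPKM for FERMT2 and 0.358 for TLN2 in P30 cells. RASSF5, a Rap1 effector also called RAPL that binds ITGAL, had 27.4 FPKM in CTR cells, 43.9 in P30 cells and 15.9 in CEBPA cells.

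Of 9 genes that restrain integrins, 2 were at least 2-fold lower in CEBPA vs CTR and 0 higher, with a median of -0.63 over the 9, where 6.92% of all genes compared were lower and 14.0% higher. These were RAP1GAP and SIPA1, which switch Rap1 off. RAP1GAP had 32.6 FPKM in CTR cells, 19.3 in P30 cells and 7.59 in CEBPA cells. SIPA1 had 35.1, 31.2 and 11.1 FPKM. SIPA1L1, of the same kind, was in the other direction and just short of 2-fold, with 6.99, 8.57 and 14.5 FPKM. Filamin A (FLNA), which competes with talin for the β tail, had 93.8 FPKM in CTR cells, 82.8 in P30 cells and 60.2 in CEBPA cells. In P30 vs CTR none of the 9 differed 2-fold, where 1.02% of all genes compared were higher and 0.613% lower.

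Of 12 ligands of integrins with values, 3 were at least 2-fold lower in CEBPA vs CTR and 0 higher, although the median over the 12 was 0.24. Of the 12, 9 exceeded 1 FPKM, and 6.92% of all genes compared were lower and 14.0% higher. All 3 belong to the ICAM family, which β2 integrins bind. ICAM2 had 91.5 FPKM in CTR cells, 46.5 in P30 cells and 12.6 in CEBPA cells. ICAM4, a red cell blood group protein, had 94.6, 80.8 and 28.7 FPKM, and ICAM5 26.0, 22.4 and 10.0. ICAM1 was at 11.5 FPKM in CTR cells, 10.3 in P30 cells and 7.16 in CEBPA cells, and ICAM3 at 9.08, 8.96 and 11.1. Fibronectin (FN1), the ligand of ITGA5 with ITGB1, had 6.09 FPKM in CTR cells, 2.52 in P30 cells and 12.5 in CEBPA cells. It was the 1 ligand at least 2-fold lower in P30 vs CTR, where 0.613% of all genes compared were lower. In that comparison 7 of the 12 ligands exceeded 1 FPKM.

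**Figure D4:**
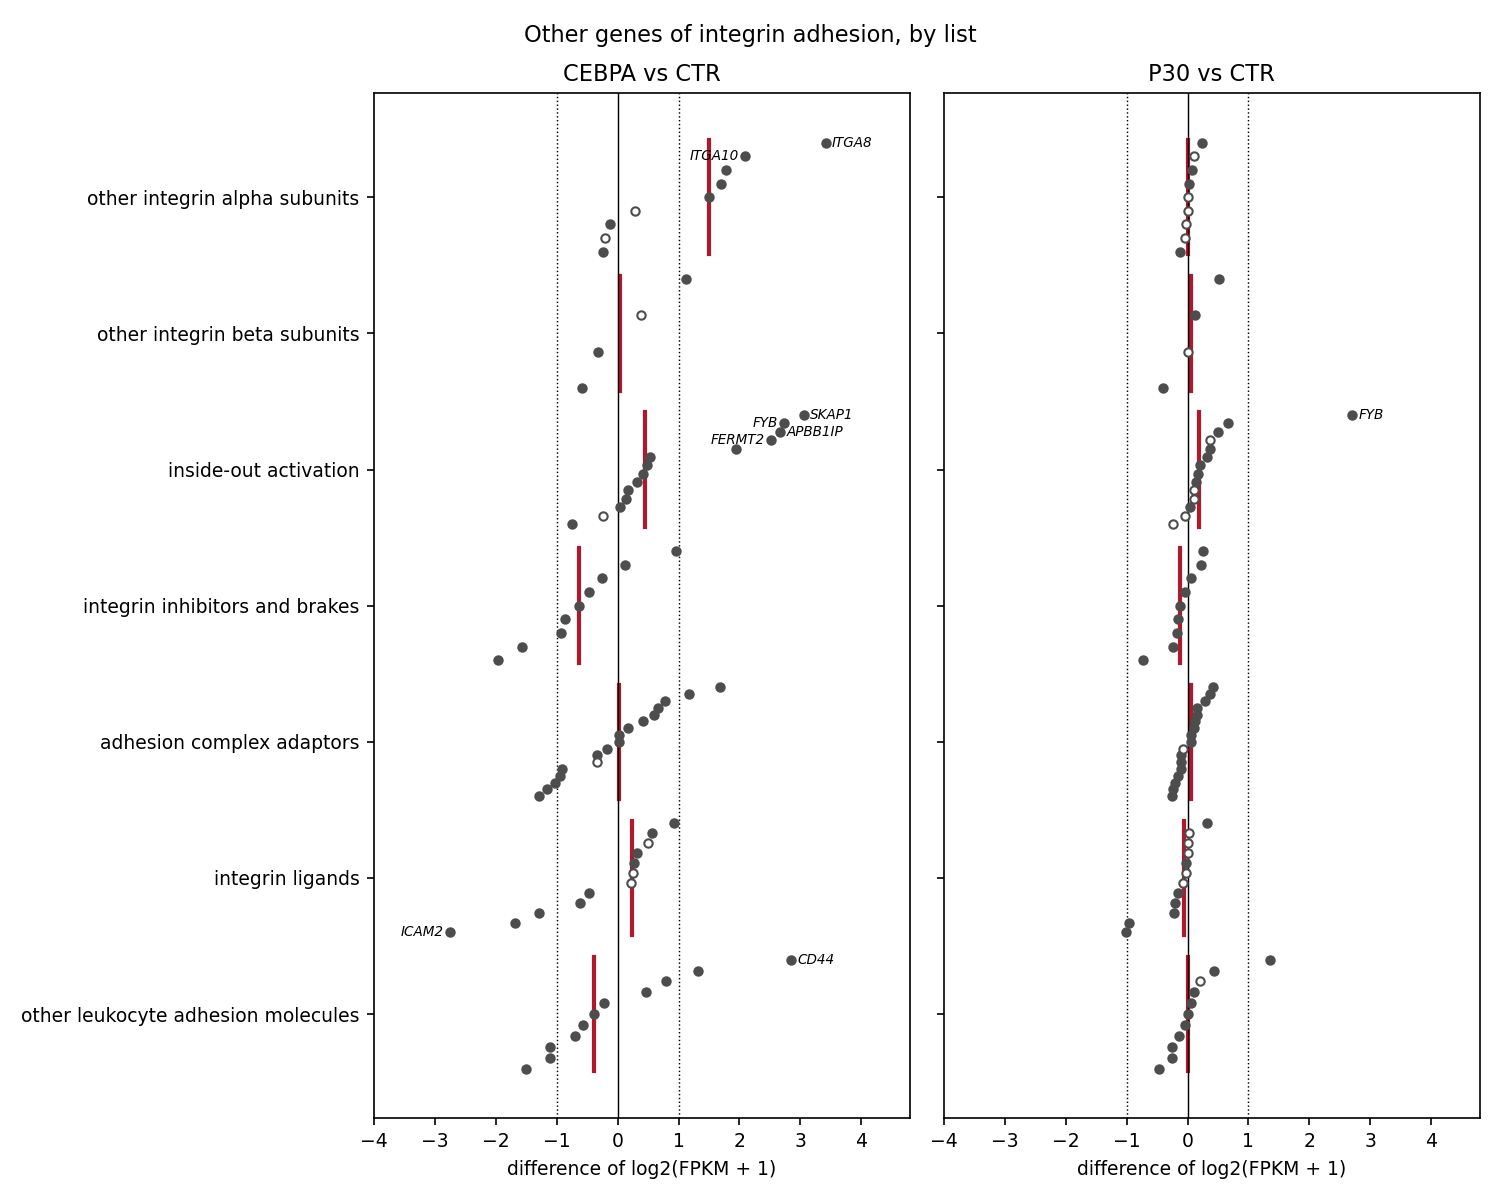
Difference of log2(FPKM + 1) (x axis) of the other genes of integrin adhesion in CEBPA vs CTR (left) and P30 vs CTR (right), by list (y axis). Each point is 1 gene, open where both lines are at or below 1 FPKM, the red bar is the median of the list, dotted lines mark 2-fold, and genes at or beyond a log2 difference of 2 are named. The other α chains have a median of 1.50 in CEBPA vs CTR but 0.01 in P30 vs CTR.

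The genes whose levels over the 3 lines were most like those of ITGB2 were sought among 13693 genes by the distance between their log2 differences to CTR. The nearest were ANXA3, PTPN22 and MARC2, at distances of 0.45, 0.64 and 0.69, followed by the small RNAs SCARNA22 and MIR3936, which were listed at 0 in CTR. ANXA3, an annexin of neutrophils, had 4.98 FPKM in CTR cells, 49.7 in P30 cells and 74.3 in CEBPA cells. PTPN22, a phosphatase of leukocytes, had 0.587, 9.19 and 35.7 FPKM. After the values of ITGAM had been seen, the same was done for it. Nearest were OR56B1, GALNT14, NNMT, ENPP7P8 and TMPRSS11F, at distances from 0.25 to 0.49. NNMT, an enzyme that methylates nicotinamide, had 2.17 FPKM in CTR cells, 16.8 in P30 cells and 2.41 in CEBPA cells. Distances over 3 values are coarse.

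Since the leukocyte integrins mark myeloid cells, markers of other blood cells were read beside them. Of 13 granulocyte markers 11 had values, and their summed level was 54.5 FPKM in CTR cells, 82.4 in P30 cells and 11986 in CEBPA cells. In CEBPA 9 of the 11 were at least 2-fold above CTR, and in P30 3 were, against 14.0% and 1.02% of all genes compared. Of the 11, 10 and 7 exceeded 1 FPKM in these comparisons. The 3 in P30 were S100A8, S100A9 and S100A12, with S100A8 at 0.551 FPKM in control, 9.54 in P30 and 3731 in CEBPA cells. CYBB was at 1.79 FPKM in control and 1.90 in P30 cells, and the G-CSF receptor CSF3R at 2.91 and 2.80. In P30, in which ITGAM was high, S100A8, S100A9 and S100A12 and the monocyte marker CSF1R were thus higher than in CTR, whereas CYBB and CSF3R were close to it. Of 7 monocyte markers 6 had values, with a sum of 506, 583 and 439 FPKM, nearly all of it CD68. Of the 6, 2 were at least 2-fold higher in CEBPA than in CTR and 1 in P30 than in CTR, against the same 14.0% and 1.02% of all genes. Only 4 and 3 of them exceeded 1 FPKM there. CSF1R, the receptor of a macrophage growth factor, had 0.111 FPKM in control, 1.54 in P30 and 1.79 in CEBPA cells and was at least 2-fold higher in both isoform lines. The Fc receptor gene FCGR1A had 0.129, 0.944 and 4.83 FPKM and was at least 2-fold higher in CEBPA, and CD14 had 0.215, 0.228 and 1.10. The sum of 7 of 9 megakaryocyte and platelet markers was 232, 240 and 167 FPKM, with GP9 listed at 0 in CTR and PF4 in P30. Most of this sum was GP1BB at 210 FPKM in control and 223 in P30 cells, at least 2-fold lower in CEBPA, whereas PPBP was at 0.0705, 0.0223 and 51.1 FPKM. TUBB1 had 8.20, 2.82 and 3.03 FPKM and was at least 2-fold lower in both isoform lines. It was the only 1 of the 7 past 2-fold in P30 vs CTR, where 0.613% of all genes compared were lower. Only 3 of the 7 exceeded 1 FPKM in that comparison. The sum of 6 of 10 lymphocyte markers was 15.9, 16.6 and 8.20 FPKM, with GNLY listed at 0 in P30, at 0.0311 FPKM in CTR and at 0.558 in CEBPA. NKG7, a gene of cytotoxic cells, had 0.478 FPKM in control, 1.74 in P30 and 3.18 in CEBPA cells. The 6 erythroid markers summed to 1467, 814 and 542 FPKM, and 6 of 6 were at least 2-fold lower in CEBPA vs CTR, but 3 of 6 in P30 vs CTR. Of all genes compared, 6.92% and 0.613% were lower. The part of these markers and of the cells they stand for in the integrin differences was not tested.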

How the data were processed

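RNA was sequenced from 6 samples of K562 cells, 2 per line (CTR, CEBPA and P30). Paired-end reads of stranded libraries were mapped by the authors with TopHat (hg19) and assembled with Cufflinks on Gencode, and the authors deposited FPKM from Cuffdiff, 1 value per gene and line for both replicates. The replicates came from separate runs on different instruments, and how rows were selected for a table is not given in the sources used here. Depth per sample is unknown from these files, and the paper gives only a range over the samples. No test between replicates could be made from the pooled values. The paper tested the pairs of lines with Cuffdiff, and its calls were not used here.

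Columns were assigned to lines by their headers, and 0 columns of values were left out. Rows were joined across the 3 tables for the 17023 symbols that occurred at most once in each, and 0 of them had unequal values between tables. Differences of log2(FPKM + 1) were computed, with a call at 2-fold among rows over 1 FPKM in at least 1 of the lines compared. The code for the calls was run on simulated large changes of well expressed genes, which tells nothing about low genes or differences near 2-fold. Promoter windows were searched on both strands for 2 motifs. They are from RefSeq (GRCh38.p14) and gene positions from Gencode on GRCh37.

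By rule, the genes named are the 9 members, up to 4 genes past 2-fold per list and comparison, partner chains of members and the 5 genes nearest to ITGB2. Other genes named, such as TLN2, RAP1B, FLNA and ICAM1, were chosen after their values were seen. The members and lists were chosen with earlier results of these data known. CEBPA and list genes without values were left out. Of the erythroid markers, 1 is not reported here and is in none of the sums and counts. Alternatives were a pseudocount of 0.1, centring, summed rows, no filter or one at 5 FPKM, and only genes in all 3 tables. Python 3.11.15, numpy 2.4.6, pandas 2.3.3 and matplotlib 3.10.9 were used.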

Additional observations from a re-analysis of the deposited data

How the results depend on the processing

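No paired analysis was possible because each line has 1 value with the replicates pooled, and so neither a replicate block nor leaving out each replicate could be run. A log2 value was taken as moved past 0.2 and a count or share past 1.5 times. These limits are working choices. Of 223 recomputed values for 45 results under 6 alternatives, 206 stayed within them, 17 moved and 0 turned direction. Many of the values could not move. Each member has 1 row, so that its log2 difference is the same with summed rows, another filter or only genes in all 3 tables. The ranks of ITGB2 and ITGAM under summed rows were fixed likewise. The tally is therefore no measure of how stable the differences are. Centring, summed rows and no filter moved none. Low genes depended on the pseudocount by its construction. With a pseudocount of 0.1, the log2 differences in CEBPA vs CTR were 4.75 for ITGB2, 2.01 for ITGAL, 3.24 for ITGAX and 1.09 for ITGA4. In P30 vs CTR they were 3.78 for ITGB2, 2.42 for ITGAM, -0.48 for ITGAL, -0.61 for ITGAX and 1.00 for ITGA4, and of all genes 1.61% were higher and 1.48% lower. In CEBPA vs P30 they were -2.51 for ITGAM, 2.50 for ITGAL and 3.85 for ITGAX. With the filter at 5 FPKM, which removes ITGAL and ITGAX, 1 member was at least 2-fold higher in CEBPA than in CTR, and 0 were higher than in P30. With only genes in all 3 tables, which removes ITGAX, 1 was higher in CEBPA vs P30.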

Other observations

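Other adhesion molecules of leukocytes, for which 11 of 14 genes had values, differed in both directions in CEBPA vs CTR, where 2 were at least 2-fold higher and 3 lower, against 14.0% and 6.92% of all genes compared. SELPLG, the selectin ligand that lets leukocytes roll on vessel walls, had 3.92 FPKM in CTR cells, 11.6 in P30 cells and 11.3 in CEBPA cells, and so it was higher in both isoform lines, as were ITGB2 and FYB. The hyaluronan receptor CD44 had 0.576, 0.823 and 10.3 FPKM in the same order and was high in CEBPA only. The tetraspanins CD9 and CD37 and the CD99 relative CD99L2 were the lower ones, with CD9 at 7.41 FPKM in CTR cells, 7.21 in P30 cells and 1.94 in CEBPA cells.

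Of 17 adaptors of adhesion complexes with values, 2 were at least 2-fold higher and 3 lower in CEBPA vs CTR. None differed 2-fold in P30 vs CTR, where 1.02% of all genes compared were higher and 0.613% lower. Of the 17, 16 exceeded 1 FPKM in each of these comparisons. In CEBPA vs CTR the share of higher ones was no larger than the 14.0% of all genes compared, and 6.92% of all genes were lower. The higher ones were RSU1, with 33.7 FPKM in CTR cells, 41.1 in P30 cells and 110 in CEBPA cells, and LIMS1 (PINCH1), with 33.0, 44.4 and 75.9. Lower were the kinase-like ILK, with 73.9, 68.7 and 35.8 FPKM, PARVB (β-parvin), with 33.0, 29.5 and 14.2, and the talin-binding KANK2, with 15.7, 12.9 and 5.80. RSU1, LIMS1, ILK and PARVB belong to 1 complex that links β chains to actin.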
